A study of Homo sapiens with 4 samples.

Results

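The proteasome is the protease complex that breaks down proteins tagged with ubiquitin, and its subunits and dedicated assembly factors are described here in LNCaP cells, a prostate cancer line that depends on androgen. The genes were chosen by name: protein-coding genes called PSMA, PSMB, PSMC, PSMD, PSME, PSMF or PSMG plus a number, that reached 1 RPKM (reads per kilobase of transcript, scaled to the mapped reads of the library) in any of the libraries. They were 44 of the 14626 genes that reached that level. Of 47 genes with such names in the tables, 3 did not reach it: the immunoproteasome subunit PSMB8 (at most 0.16 RPKM), the thymus subunit PSMB11 (at most 0.1 RPKM) and the assembly chaperone PSMD5 (at most 0.41 RPKM). PSMA8, a testis form of an alpha subunit, is not analysed here. PSMB9, at 1.21 RPKM in its highest library, lay just inside the limit, and the other 43 genes were at 5 RPKM or more in all 4 libraries.

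RNA was sequenced from 4 conditions with 1 library each. Cells received an empty vector or AR1-651, a truncated construct without the ligand-binding domain, for 24 h. They were then kept for 12 h without or with AIL (ailanthone, a plant-derived quassinoid). The conditions are called empty vector and AR1-651 where AIL was left out, and empty vector + AIL and AR1-651 + AIL where it was given. All 4 cultures were transfected with a plasmid, and no untransfected culture was used here. The share of cells that took up the plasmid is not given in the sources used here, and in bulk RNA a different share of cells and a different amount of RNA per cell cannot be told apart. With 1 library per condition no difference below has a replicate check or a test, and depth and counting error are unknown because RPKM carries no counts. Where 4 values follow each other, they come in 1 order: first both empty vector libraries, without and then with AIL, and then both AR1-651 libraries likewise. A change is the difference between 2 libraries in log2(RPKM + 1), so that 1 is 2-fold on this scale.

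The 26S proteasome has a barrel, the 20S core, and a cap on its ends, the 19S regulatory particle. The core is built from alpha rings (PSMA genes), which form the gate, around beta rings (PSMB genes), of which PSMB5, PSMB6 and PSMB7 carry the protease sites. The 19S particle holds a ring of ATPases (PSMC genes) that unfold and feed substrates, and non-ATPase subunits (PSMD genes) that bind and remove ubiquitin. PSMG proteins and POMP help to assemble the core, PSME proteins are alternative caps, and PSMF1 binds the core as an inhibitor. When proteasome activity is short, cells are known to raise the transcription of many of these genes together through NFE2L1, a transcription factor that is released from the endoplasmic reticulum by VCP and processed by NGLY1 and DDI2.

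The libraries were first checked against their labels. KLK3, which encodes prostate-specific antigen and is a classic androgen-induced gene, measured 287, 303, 1442 and 582 RPKM, and was highest with AR1-651. The series' design text names retina as the source, but all 7 markers of prostate luminal cells were present at 11.6 RPKM or more in every library (summed, 1606 to 3787 RPKM). Of the markers in the tables, the basal one was at most 0.21 RPKM, those of leukocytes at most 0.94, those of endothelium at most 0.59, and of 3 fibroblast markers COL1A1 reached 4.59 RPKM. Ribosomal protein genes took 23.0, 22.2, 32.9 and 25.4% of the summed RPKM, so the share left for all other genes was smallest with AR1-651 alone. The median change over all genes was −0.30 for AR1-651 against empty vector, −0.02 for AIL in empty vector cells, 0.13 for AIL in AR1-651 cells and −0.03 for AR1-651 + AIL against empty vector + AIL. After median-ratio scaling of the libraries these medians were −0.09, −0.03, −0.03 and 0.01. Members' changes below are therefore set beside the median of all genes in the same comparison.

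Proteasome genes were among the well-expressed genes of LNCaP cells. Their median was 73.3, 106, 82.4 and 121 RPKM against 9.26, 9.27, 6.83 and 8.47 RPKM for all genes, and 42 of the 44 lay above the all-gene median in every library. Together they took 0.766, 0.981, 0.823 and 1.07% of the summed RPKM. Without the ribosomal protein genes in the sum, these shares were 0.995, 1.26, 1.23 and 1.44%. In both forms the empty vector library was lowest and the AR1-651 + AIL library highest. Of the 44 genes, 27 had their lowest value with empty vector and 22 their highest with AR1-651 + AIL, while over all genes these libraries held the lowest value of 22.5% and the highest of 26.2%.

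**Figure D1:**
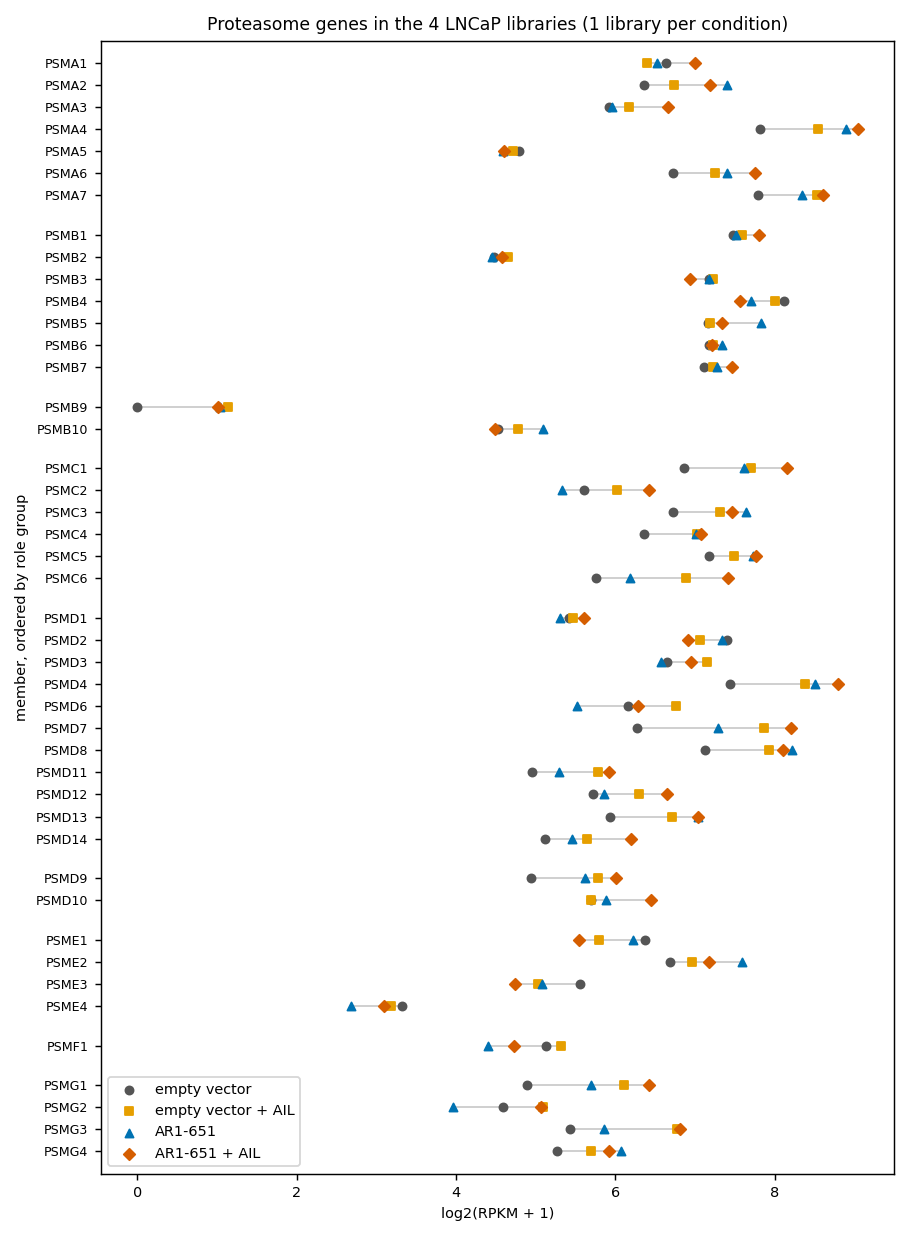
Level of each of the 44 proteasome genes on the log2(RPKM + 1) axis, 1 row per gene in role groups, with a circle for empty vector, a square for empty vector + AIL, a triangle for AR1-651 and a diamond for AR1-651 + AIL (1 library each, no error). Circles lie leftmost in 27 rows. PSMA4 is the highest and PSMA5 the lowest alpha ring gene in every library, while the highest beta ring gene differs between libraries.

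Levels differed more between subunits of a core ring than between conditions, although a complete ring holds its subunits in equal number. The highest subunit stood at 8.36 to 22.6 times the lowest in the alpha ring and at 9.74 to 12.9 times in the beta ring, while among members above 0 in all libraries the largest ratio between libraries was 3.86, that of PSMD7. Among the alpha subunits, PSMA4 was highest in all 4 libraries (224, 370, 476 and 529 RPKM) and PSMA5 lowest (26.7, 25.4, 23.1 and 23.4 RPKM). Among the beta subunits PSMB2 was lowest throughout, between 20.9 and 24.2 RPKM. The highest beta subunit was PSMB4 in both empty vector libraries, PSMB5 with AR1-651 and PSMB1 with AR1-651 + AIL. The ATPases were more even than the core rings, with a highest-to-lowest ratio of at most 5.34 and PSMC2 lowest in every library. PSMD4, a ubiquitin receptor of the 19S particle, led the non-ATPases in all 4 libraries. The order of the 44 genes by RPKM was largely kept, with Spearman correlations between libraries of 0.86 to 0.96 across genes, which share the library and are not independent.

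The first comparison asked how AIL altered these genes in cells with empty vector. Most were higher with AIL: 36 of 44 were higher and 8 lower, against 48.3% higher and 51% lower over all genes, and their median change was 0.42 against −0.02. A 2-fold difference upward was reached by 5 genes, PSMD7, PSMG3, PSMG1, PSMC6 and PSMB9, against 9.53% of all genes, so the share of members past 2-fold was near this background. PSMB9 is among them only because it is listed at 0 with empty vector, and leaving it out left 4. No member was 2-fold lower, against 9.03% of all genes. At 1.5-fold, 15 members were higher and none lower, against 20.9% and 22.1% of all genes. The difference of the members from all genes thus lay in a modest offset of many of them.

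The 19S particle and the core chaperones held the larger changes. Of 17 genes for 19S subunits 16 were higher, with a median change of 0.60 (ATPases 0.62, non-ATPases 0.60). PSMD7, a lid subunit that pairs with the deubiquitinase PSMD14, measured 76.2, 233, 155 and 294 RPKM. Its change with AIL in empty vector cells, 1.60, was the largest of any member. The ATPase PSMC6 measured 52.9, 118, 71.6 and 169 RPKM, a change of 1.14. PSMD4, with 172, 333, 362 and 443 RPKM, was higher by 0.95 and so just under 2-fold. All 4 PSMG genes were higher, with a median of 0.85. PSMG3, which with PSMG4 forms a chaperone for alpha ring formation, measured 42.2, 108, 56.9 and 111 RPKM (change 1.34), and PSMG1, the partner of PSMG2, measured 28.7, 67.8, 50.9 and 84.7 RPKM (change 1.21). In both genes the 2 libraries with AIL lay above the 2 without.

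Differences were smaller in the core. The alpha ring had a median of 0.38, with 5 of 7 genes higher, PSMA7 (0.74) and PSMA4 (0.73) most. The beta ring stayed closest to the median of all genes: its 7 changes ran from −0.11 (PSMB4) to 0.17 (PSMB2), with a median of 0.06 that was −0.05 both with the trend across genes against transcript length and GC content taken out and when ribosomal protein genes were left out. The activators were the only role group with a negative median, −0.33, in the same comparison. PSME1, a subunit of the interferon-inducible 11S cap, measured 81.9, 54.7, 73.6 and 45.5 RPKM. PSME3, which forms the related cap of the nucleus, measured 45.9, 31.7, 32.9 and 25.8 RPKM. In both, each library with AIL was below its counterpart without, with changes in empty vector cells of −0.57 for PSME1 and −0.52 for PSME3. The third most negative change was that of PSMD2 (168, 133, 160 and 120 RPKM), a scaffold subunit at the base of the 19S particle, at −0.34.

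The same question was asked in AR1-651 cells, with 2 libraries that the first comparison did not use. There 29 of 44 members were higher and 15 lower with AIL, against 56.2% and 42.5% of all genes. Their median of 0.27 exceeded that of all genes, 0.13, by 0.15. With median-ratio scaling the members' median was 0.05 against −0.03, and 23 of 44 were higher. PSMC6 (1.23), PSMG2 (1.10) and PSMC2 (1.09) were 2-fold higher, against 14.9% of all genes, a share above that of the members, and none was 2-fold lower, against 5.74%. With scaling PSMC6 alone remained past 2-fold, at 1.01, as against 1582 of all 14626 genes. With the trend against length and GC content removed the changes were 0.46 for PSMC6, 0.83 for PSMG2 and 0.74 for PSMC2. Instead PSMG3 was then the only member past 2-fold, at 1.16. At 1.5-fold, 11 members were higher and 2 lower, against 28.6% and 14.7% of all genes. PSMC2, another ATPase, measured 47.7, 64.0, 39.3 and 85.1 RPKM. PSMG2 measured 23.1, 33.0, 14.6 and 32.6 RPKM. In these 2 genes the value with AR1-651 alone was the lowest of the 4, and the 2 AIL libraries lay above both others.

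By role, the PSMG genes again had the highest median (0.84), followed by the 19S chaperones (0.48), non-ATPases (0.37), ATPases (0.31) and alpha ring (0.26). The beta ring (−0.12) and the activators (−0.38) had negative medians, as did the immunoproteasome pair (−0.31). With median-ratio scaling these medians were lower: 0.62 for the PSMG genes, 0.26 for the 19S chaperones, 0.15 for the non-ATPases, 0.09 for the ATPases, 0.04 for the alpha ring, −0.34 for the beta ring, −0.59 for the activators and −0.48 for the immunoproteasome pair. The 3 most negative changes were those of PSME1 (−0.68), PSMB10 (−0.60) and PSMB5 (−0.49).

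Set side by side, the changes with AIL agreed in sign in both backgrounds for 29 members. Of these, 25 were higher in both, against 38% of all genes, and 4 were lower in both (PSMB4, PSMD2, PSME1 and PSME3), against 32.2%. The other 15 had opposite signs, against 27.8%. Of the 17 genes for 19S subunits 13 were higher in both, while of the 14 core subunits 7 were. These counts by sign depend on the scale. With median-ratio scaling 6 members turned from higher to lower with AIL in AR1-651 cells, and 0 changed sign in empty vector cells. The 6 were PSMA4, PSMA5, PSMB2, PSMB7, PSMC4 and PSMC5. At 1.5-fold, 6 members were higher in both backgrounds, PSMC6, PSMD6, PSMD7, PSMD11, PSMG1 and PSMG3, against 14.4% of all genes, so their share was close to the background. Across members the changes in the 2 backgrounds correlated with Pearson r = 0.53 and Spearman rho = 0.47 (n = 44), and across all 14626 genes with 0.56 and 0.59. Both coefficients were slightly lower across members, and genes of 1 library are not independent.

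**Figure D2:**
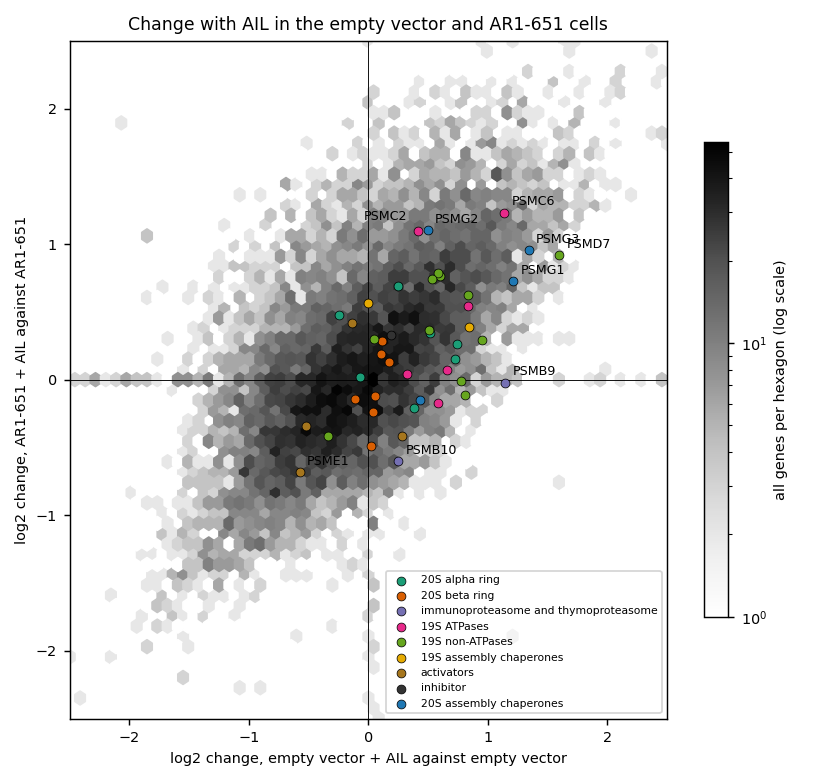
Log2 change with AIL in AR1-651 cells (vertical axis) against that in empty vector cells (horizontal axis), with 1 coloured point per member by role group and hexagons shaded by the number of all genes on a log scale, both axes cut at ±2.5. Of the 44 members 25 lie in the upper right quadrant and 4 in the lower left. The 7 beta ring genes lie between −0.11 and 0.17 on the horizontal axis and between −0.49 and 0.29 on the vertical axis.

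The change with AIL in AR1-651 cells minus that in empty vector cells ran from −1.17 (PSMB9, with values near 1 RPKM) to 0.72 (PSMA1). PSMD8 and PSMD13, subunits of the 19S lid, measured 138, 242, 297 and 274 RPKM and 60.0, 104, 131 and 129.9 RPKM. Both were higher with AIL in empty vector cells (0.81 and 0.78) and showed changes of −0.12 and −0.01 in AR1-651 cells, where the starting level was already above that of the empty vector + AIL library. PSMA1, an alpha subunit, measured 98.4, 82.9, 91.2 and 127 RPKM, with changes of −0.24 and 0.48. PSMD10 (gankyrin), a 19S assembly chaperone, measured 51.0, 50.8, 57.9 and 85.9 RPKM, with changes of −0.01 and 0.56, so that the AR1-651 + AIL library stood above the other three. PSMD9, its companion chaperone, measured 29.7, 54.0, 48.0 and 63.3 RPKM, with changes of 0.84 and 0.39. These differences between backgrounds were not tested.

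Promoter sequence is shown for a few members at the ends of the range of changes with AIL. RefSeq's promoter table (GRCh38.p14) held 38 of the 44 members and 11173 of all genes compared. For 6 of the 38, PSMG1 among them, the table's start lies inside the RefSeq gene, so that the window belongs to 1 of several starts, and PSMG3 has no entry. Shown are therefore the 250 bases before the RefSeq start of PSMD7 and PSMC6, 2-fold higher with AIL in empty vector cells, and of PSME1, which had the most negative change in both backgrounds. They are given 5′ to 3′ on the gene's strand. Capitals mark CCAAT, the antioxidant response element core TGANNNNGC and the ETS site CCGGAAG on either strand, sequences that NF-Y, NFE2 family factors and ETS factors are known to bind. The windows are chr16:74296564-74296813 (plus strand) for PSMD7, chr14:52706950-52707199 (plus strand) for PSMC6 and chr14:24135944-24136193 (plus strand) for PSME1.
PSMD7: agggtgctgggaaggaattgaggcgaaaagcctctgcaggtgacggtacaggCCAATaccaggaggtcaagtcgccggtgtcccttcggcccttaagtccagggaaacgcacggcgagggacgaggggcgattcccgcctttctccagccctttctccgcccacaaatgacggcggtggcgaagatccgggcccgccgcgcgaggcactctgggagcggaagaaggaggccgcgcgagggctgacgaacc
PSMC6: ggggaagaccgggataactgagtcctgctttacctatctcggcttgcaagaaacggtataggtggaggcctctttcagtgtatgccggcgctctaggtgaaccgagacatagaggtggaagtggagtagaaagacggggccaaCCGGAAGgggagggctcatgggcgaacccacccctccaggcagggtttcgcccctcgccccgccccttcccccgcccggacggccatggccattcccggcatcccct
PSME1: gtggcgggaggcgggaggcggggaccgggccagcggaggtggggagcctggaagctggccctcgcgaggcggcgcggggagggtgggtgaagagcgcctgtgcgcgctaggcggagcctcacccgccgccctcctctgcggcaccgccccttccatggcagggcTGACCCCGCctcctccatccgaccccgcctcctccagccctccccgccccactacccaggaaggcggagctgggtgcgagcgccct
PSMD7 held 1 CCAAT box, 198 bases before the start, and neither of the other motifs in capitals. PSMC6 held 1 ETS site at 107 bases and PSME1 1 antioxidant core at 86 bases. Each of the 3 windows thus held a different one of these motifs.

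Across the matched windows the members held most motifs somewhat more often than all genes. The shares were 50% of members and 36.4% of all promoters for the antioxidant core, 44.7% and 35.7% for CCAAT, 68.4% and 65.5% for the GC box GGGCGG, and 23.7% and 16.1% for the ETS site. The gamma-activated site TTCNNNGAA stood in 10.5% and 5.60%, and the heat shock element core GAANNTTC in none of the 38 members and 4.18% of all promoters. Members with and without an antioxidant core had median changes with AIL of 0.51 and 0.38 in empty vector cells and of 0.07 and 0.30 in AR1-651 cells, so the order turned between backgrounds. For the ETS site, held by 9 members, the order was kept, at 0.60 and 0.28 in empty vector cells and 0.42 and 0.13 in AR1-651 cells. The same order held over all genes (0.19 and −0.03, then 0.30 and 0.13). Among the 9, the windows of PSMC2, PSMD6 and PSMG4 have a start inside the gene. For CCAAT the members' medians were 0.42 and 0.43, then 0.04 and 0.30. They were 0.52 and 0.22, then 0.23 and 0.23 for the GC box. For the gamma-activated site, in 4 members, they were 0.44 and 0.42, then −0.07 and 0.32. Short motifs of this kind occur by chance in many windows, and a match is a description, not a site of binding.

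The next comparison was AR1-651 against empty vector without AIL. While 67% of all genes were lower with AR1-651 and the all-gene median was −0.30, 29 of 44 members were higher (32.2% of all genes) and their median was 0.34. Past 2-fold there were 7 higher members, PSMD13, PSMD8, PSMA4, PSMD4, PSMB9, PSMA2 and PSMD7, against 4.01% of all genes, and none was 2-fold lower, against 11.6%. This count depended on the scale: it was 12 with median-ratio scaling, 3 with the trend against length and GC content removed and 1 without ribosomal protein genes, whose share was largest in this library. In the last case the members' median was 0.18. Over all genes, 1066 of 14626 were 2-fold higher with median-ratio scaling, against 586 without it. On the other scales the number over all genes was not counted. At 1.5-fold, 16 members were higher and 4 lower, against 10.7% and 32.3% of all genes. PSMB9, one of the 7, is listed at 0 with empty vector, and no fold is given for it.

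By role, the immunoproteasome pair had the highest median (0.80), which rests in part on PSMB9. The PSMG genes (0.61), ATPases (0.60), alpha ring (0.56) and 19S chaperones (0.43) followed, with the non-ATPases at 0.33. The immunoproteasome median was 0.36 without the RPKM filter, which brings in PSMB8 and PSMB11, and 2.06 with a pseudocount of 0.1. Its rank thus depends on these settings. PSMA4 (values above) was higher by 1.09 and PSMA2, another alpha subunit, with 81.0, 106, 168 and 145 RPKM, by 1.04. The lid and base subunits PSMD13 (1.11), PSMD8 (1.10), PSMD4 (1.07) and PSMD7 (1.01) were all near 2-fold. The beta ring median was 0.04, and −0.03 with the length and GC trend removed or −0.13 without ribosomal protein genes. The 3 most negative changes belonged to 3 roles: the inhibitor PSMF1 (−0.74), the nuclear cap PSME4 (−0.64) and the lid subunit PSMD6 (−0.64). With the length and GC trend removed they were −0.36, −0.01 and −0.80. The most negative were then PSMG2 (−0.80), PSMD6 and PSMB4 (−0.58), so the ranking depends on this trend. PSMD6 measured 70.4, 107, 45.0 and 76.9 RPKM, lower with AR1-651 than with empty vector both without and with AIL.

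**Figure D3:**
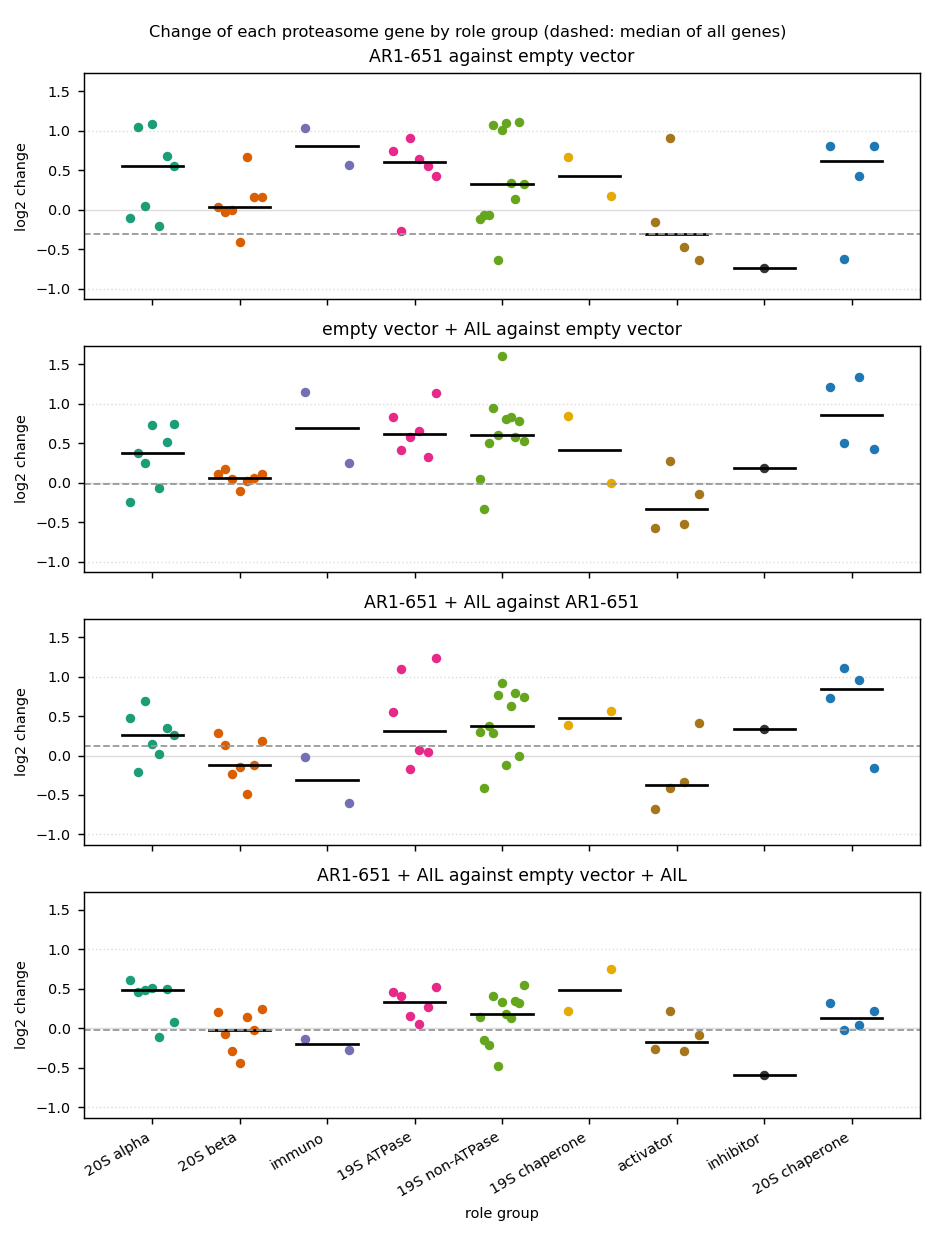
Log2 change of each member (points) by role group in the 4 comparisons, 1 panel each, with a black bar at the group's median, a dashed line at the median of all genes and dotted lines at 2-fold. The beta ring points lie between −0.49 and 0.66 over all panels. The medians of the ATPases, non-ATPases, alpha ring, 19S chaperones and PSMG genes lie above the dashed line in all 4.

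With AIL present in both arms, the differences between AR1-651 and empty vector were smaller. Members had a median change of 0.17 against −0.03 for all genes, with 29 higher and 15 lower (46.9% and 51.9% of all genes). None was 2-fold higher, against 1.46% of all genes, and none 2-fold lower, against 3.53%. At 1.5-fold, 2 were higher and 1 was lower, against 7.73% and 15.5%. The ATPases (median 0.34, 6 of 6 higher) and the alpha ring (median 0.49, 6 of 7 higher) had most of their members on 1 side, as had the non-ATPases (median 0.18, 8 of 11 higher). With the length and GC trend removed the alpha ring median was 0.06. The 3 most positive changes were those of PSMD10 (0.75), PSMA1 (0.61) and the lid deubiquitinase PSMD14 (0.54; 33.8, 49.2, 42.8 and 72.2 RPKM). The 3 most negative changes were those of PSMF1 (−0.59), PSMD6 (−0.47) and PSMB4 (−0.44; 275, 255, 208 and 188 RPKM). This comparison and that of AIL in AR1-651 cells share the AR1-651 + AIL library, and the comparisons of AR1-651 and of AIL with empty vector alone share the empty vector library. The AR1-651 library enters both the comparison with empty vector and that of AIL in AR1-651 cells, with opposite sign, so a gene that is lower in the first and higher in the second, such as PSMC2, PSMG2 or UBLCP1, rests on that 1 value in both. The empty vector + AIL library is shared with opposite sign in the same way.

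Sums over a role group show the same data on the RPKM scale, where highly expressed subunits weigh most. The non-ATPases summed to 941, 1517, 1420 and 1737 RPKM and the ATPases to 545, 854, 841 and 1064 RPKM. The alpha ring summed to 815, 1174, 1313 and 1528 RPKM. In these 3 groups the empty vector library was lowest and the AR1-651 + AIL library highest. The beta ring sums lay within a narrow range, with 1042, 1062, 1095 and 1038 RPKM. The PSMG genes summed to 131, 260, 189 and 288 RPKM, higher in both libraries with AIL, and the activators to 239, 218, 304 and 223 RPKM. The median 19S subunit stood at 0.544, 0.868, 0.779 and 0.845 times the median core subunit, a ratio within a library that does not depend on its scaling. It was lowest with empty vector, and the other 3 libraries lay close together.

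**Figure D4:**
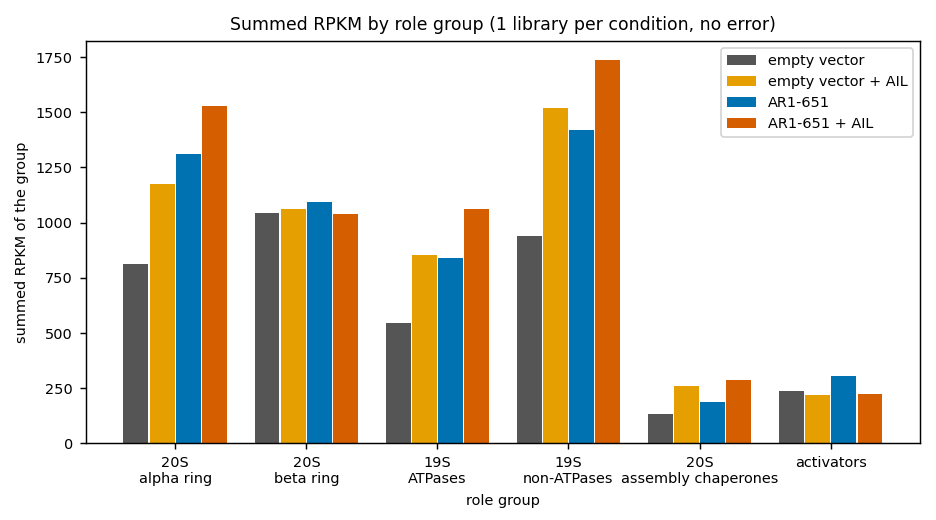
Summed RPKM (vertical axis, from 0) of 6 role groups, with 1 bar per library and no error because each condition has 1 library. The 4 beta ring bars lie between 1038 and 1095 RPKM, while the non-ATPase bars run from 941 to 1737 RPKM.

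The protease subunits differed little between most libraries. PSMB5, the chymotrypsin-like subunit and main target of bortezomib, measured 142, 145, 226 and 160.2 RPKM, so the AR1-651 library stood above the other three (0.66 against empty vector). PSMB6, the caspase-like subunit, measured 143, 149, 160.1 and 147 RPKM. PSMB7, the trypsin-like subunit, measured 138, 148, 154 and 176 RPKM. The ratio of PSMB5 to PSMB6 was 0.996, 0.974, 1.41 and 1.09. None of the 12 changes of these 3 genes reached 1.5-fold except that of PSMB5 with AR1-651, and those of PSMB6 and PSMB7 changed sign in part with the scaling.

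Immunoproteasome subunits, which interferon induces and which replace the standard protease subunits for antigen presentation, were low or moderate. PSMB8 and PSMB9 were near or below 1 RPKM in every library, with PSMB9 at 0, 1.21, 1.05 and 1.02 RPKM. PSMB10, which takes the place of PSMB7, measured 22.0, 26.3, 33.3 and 21.5 RPKM, or 0.160, 0.178, 0.215 and 0.123 times PSMB7. It was higher with AR1-651 (0.57) and lower with AIL in AR1-651 cells (−0.60). The 11S cap subunits PSME1 and PSME2 diverged: PSME2 measured 102, 124, 192 and 144 RPKM while PSME1 was highest with empty vector. Their ratio, PSME1 to PSME2, was 0.806, 0.442, 0.383 and 0.316. PSME4, the cap PA200, was the least abundant activator, with 9.03, 8.11, 5.43 and 7.58 RPKM.

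The inhibitor PSMF1 and the last core chaperone had patterns of their own. PSMF1 measured 34.1, 38.9, 20.1 and 25.5 RPKM, lower in both AR1-651 libraries than in both empty vector libraries. PSMG4 measured 37.5, 50.8, 66.4 and 59.6 RPKM, with changes of 0.81 for AR1-651, 0.43 for AIL in empty vector cells and −0.15 for AIL in AR1-651 cells, where the trend-removed change was 0.02. PSMG4 thus differed from its partner PSMG3, whose 2 AIL libraries were the highest.

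Genes that work with the proteasome under other names were read as well. Of 13 such genes 10 were higher with AIL in empty vector cells (median 0.27) and 11 in AR1-651 cells (median 0.28), against 48.3% and 56.2% of all genes. With median-ratio scaling 8 of the 13 were higher in AR1-651 cells, with a median of 0.07. ADRM1, a ubiquitin receptor of the 19S particle, measured 114, 265, 140.1 and 199.9 RPKM and was 2-fold higher in empty vector cells (1.20). AKIRIN2, which carries proteasomes into the nucleus, measured 7.08, 18.1, 4.27 and 12.4 RPKM and was 2-fold higher in both backgrounds (1.24 and 1.35). UBLCP1, a phosphatase of the 19S particle, was 2-fold lower with AR1-651 (−1.51) and 2-fold higher with AIL in AR1-651 cells (1.81). POMP, the core maturation factor, measured 101, 116, 214 and 165 RPKM, and SEM1, a small 19S subunit, 126, 182, 282 and 245 RPKM. Both were 2-fold higher with AR1-651 (1.08 and 1.15), as several alpha and non-ATPase subunits were.

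The genes of the NFE2L1 route differed in direction with AIL. NFE2L1 itself measured 67.7, 29.1, 47.4 and 20.5 RPKM and was 2-fold lower in both backgrounds (−1.19 and −1.17). VCP, the ATPase that extracts it, measured 145, 71.2, 121 and 52.7 RPKM and was 2-fold lower as well (−1.01 and −1.19). NGLY1, the glycanase that activates it, measured 11.6, 37.6, 13.5 and 45.4 RPKM and was 2-fold higher (1.61 and 1.67). The transcript of NFE2L1 was thus lower in the same libraries in which PSMD7, PSMC6, PSMG1 and PSMG3 were higher. NFE2L1 is regulated mostly after translation, which these data do not measure, and its part in the members' levels was not tested. The protease DDI2 and the related factor NFE2L2 measured 8.38, 8.76, 3.24 and 7.50 RPKM and 15.03, 13.2, 5.68 and 15.9 RPKM. Both were 2-fold lower with AR1-651 (−1.15 and −1.26) and 2-fold higher with AIL in AR1-651 cells (1.00 and 1.34), which left the AR1-651 + AIL library near the empty vector library. With scaling these changes of DDI2 were −0.93 and 0.83, both short of 2-fold, and those of NFE2L2 were −1.03 and 1.15.

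Genes for ubiquitin and its delivery were near the background. Of these 14 genes, 8 were higher with AIL in empty vector cells (median 0.16) and 9 in AR1-651 cells (median 0.09), against 48.3% and 56.2% of all genes. The latter median was −0.13 with scaling and −0.01 with the length and GC trend removed. UBA1, the main ubiquitin-activating enzyme, measured 128, 89.9, 78.4 and 50.9 RPKM and was lower with AIL in both backgrounds (−0.51 and −0.61). UBA6 measured 8.63, 5.11, 4.89 and 11.5 RPKM, with changes of −0.66 and 1.09. The latter was the only change past 2-fold with AIL among the 14 genes, and was 0.90 with scaling. Of 7 antigen presentation genes above the limit, 5 were lower with AIL in empty vector cells and 4 in AR1-651 cells, against 51% and 42.5% of all genes, so that the list was near the background. TAP2, a peptide transporter subunit, was 2-fold lower in both (−1.56 and −1.25), at low levels of 7.29, 1.82, 4.22 and 1.2 RPKM. TAPBP (tapasin) was 2-fold lower in empty vector cells (−1.14). The 2 genes of this list that were higher in empty vector cells were TAP1 (0.43) and IRF1 (0.15). In AR1-651 cells they changed by −0.11 and 0.75.

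Transcript length and GC content went along with the changes. Members were short, with a median of 1397 nt against 2550 nt for all genes, and similar in GC content (49.3% and 49.6%). Over all genes the change with AR1-651 correlated with length at Spearman rho = −0.41, shorter transcripts being higher, and within members at −0.25. The change with AIL in AR1-651 cells correlated with GC content at −0.41 over all genes and −0.49 within members, GC-poor transcripts being higher. With AIL in both arms, the change with AR1-651 correlated with GC content at −0.61 over all genes and −0.39 within members. With both trends removed the members' medians were 0.42, 0.25, 0.11 and 0.12 in the order AR1-651, AIL in empty vector cells, AIL in AR1-651 cells and AR1-651 with AIL, against −0.02, −0.02, −0.03 and 0.02 for all genes. They stayed above those of all genes in each comparison. What part length and GC content had in the changes was not tested.

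**Figure D5:**
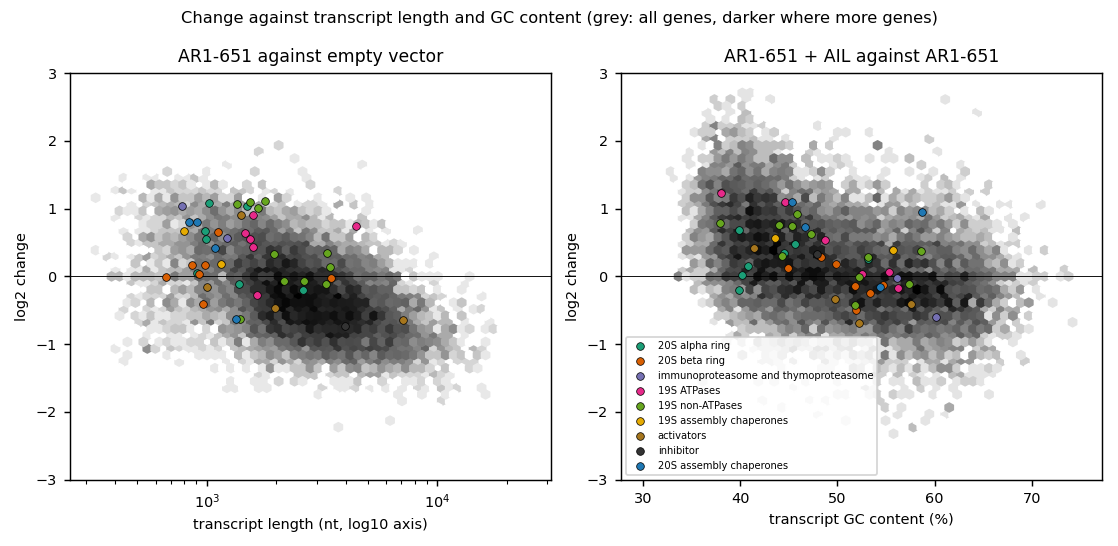
Log2 change with AR1-651 against transcript length (left, log10 axis in nt) and with AIL in AR1-651 cells against transcript GC content in percent (right), with members as coloured points by role group and all genes as grey hexagons, the vertical axis cut at ±3. Members sit mostly on the short side of the left panel, and in the right panel GC-poor genes lie higher.

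Processed pseudogenes limit the values of some members. RefSeq names 52 pseudogenes after 21 of the 44, with 13 for PSMC1, 6 for PSME2 and 4 each for PSMA6 and PSMD7. How reads that match several places were counted is not given in the sources used here, so reads of a gene and of its copies may be split or shared. PSMC6, PSMA2 and PSMC2 have 3, 3 and 2 such copies, and PSMG1, PSMA4 and PSMD13 none by this naming.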

How the data were processed

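RNA from 4 LNCaP cultures, 1 per condition, was sequenced on an Illumina HiSeq and the authors deposited gene-level RPKM values with 2 decimals. The submitters' notes name BWA 0.7.10-r789 and hg19; the counting tool, annotation, use of strand and handling of reads with several matches are not given in the sources used here. The labels name both a Ribo-Zero kit and oligo(dT) selection. RPKM gives no depth, and low values showed no common step from which reads could be recovered.

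Entrez Gene identifiers were matched to RefSeq symbols (GRCh38.p14; 19703 of 19801), with no coordinates taken over. From the deposited RPKM, log2(RPKM + 1) was computed for the 14626 genes with at least 1 RPKM in at least 1 library, and 4 differences between libraries were taken. With 1 library per condition there is no test: a gene counted as higher or lower by 2-fold on this scale, and members were set beside all genes. Transcript length and GC content were medians over the GENCODE 29 transcripts that the RefSeq identifiers of a gene name (95.8% of genes, 44 of 44 members). A polynomial of degree 3 in the ranks of each was used to remove trends. Median-ratio scaling, a pseudocount of 0.1, no filter, a minimum of 5 RPKM, a 1.5-fold threshold and removal of ribosomal protein genes were tried as alternatives, and leaving out PSMB9 was added after seeing the data. The procedure was tested on simulated data.

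The members, role groups, lists and motifs were chosen with earlier results of these data known. Named in full were the protease, immunoproteasome, activator, inhibitor and assembly genes, PSMD2, PSMD4 and PSMD14, members past 2-fold, and the 3 most positive and most negative changes of each comparison. Values of some genes are not reported here. Promoter windows came from RefSeq's table. Python 3.11.15, NumPy 2.4.6, pandas 2.3.3 and matplotlib 3.10.9 were used.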

Additional observations from a re-analysis of the deposited data

Results flagged for a closer look

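The change with AIL had opposite signs in the empty vector and AR1-651 backgrounds for 15 of the 44 members, against 27.8% of all genes, and for 2 role groups. With median-ratio scaling 6 members changed sign with AIL in AR1-651 cells, so the count of opposite signs depends on the scale. With 1 library per condition none of these differences was tested. They are given as the log2 change in AR1-651 cells minus that in empty vector cells. The difference of the group medians was −0.18 for the beta ring and −1.01 for the immunoproteasome pair, of which PSMB9 rests on values near 1 RPKM. Among core subunits it was 0.72 for PSMA1, −0.59 for PSMA2, 0.0881 for PSMA5, −0.28 for PSMB3, −0.52 for PSMB5 and −0.18 for PSMB6. It was −1.17 for PSMB9 and −0.85 for PSMB10. Among 19S subunits and chaperones it was −0.76 for PSMC3, −0.92 for PSMD8, −0.79 for PSMD13 and 0.57 for PSMD10. The activators PSME2 and PSME4 had −0.69 and 0.55, and the core chaperone PSMG4 had −0.58. For PSMA5, PSMB3, PSMB5, PSMB6, PSMB9, PSMD10 and PSMD13 at least 1 of the 2 changes was smaller than 0.1, and its sign carries little weight.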

How the results depend on the processing

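No paired analysis was possible because each condition has 1 library and no replicate numbers. A pseudocount of 0.1, a minimum of 5 RPKM and leaving out PSMB9 moved no count of members by over 1.5 times and no median over all members by over 0.1. The immunoproteasome medians for AR1-651 and for AIL in empty vector cells were 2.06 and 1.98 with a pseudocount of 0.1. Without a filter they were 0.36 and 0.12. With median-ratio scaling, the members 2-fold higher with AR1-651 were 12, against 1066 of all 14626 genes, and their median was 0.60. Those 2-fold higher with AIL in AR1-651 cells were 1, against 1582 of all genes, with a median of 0.055. On this scale the beta ring median for AR1-651 with AIL in both arms was 0.0405. Without a filter the median for AR1-651 was 0.18, or 0.36 above all genes, and the 19S chaperone median for AIL in empty vector cells was −0.0050. At 1.5-fold, 16, 15, 11 and 2 members were higher (AR1-651, AIL in empty vector cells, AIL in AR1-651 cells, AR1-651 with AIL), and 4 were lower with AR1-651, 2 with AIL in AR1-651 cells and 1 with AR1-651 and AIL in both arms. Without ribosomal protein genes, 1 member was 2-fold higher with AR1-651 with a median of 0.18, the median for AIL in empty vector cells was 0.32, and the beta ring medians in these 2 comparisons were −0.13 and −0.0495. With the length and GC trend removed, 3 members were 2-fold higher with AR1-651, 0.44 above all genes in the median. For AIL in empty vector cells the median was then 0.25, or 0.27 above all genes. For AIL in AR1-651 cells 1 member, PSMG3 at 1.16, was 2-fold higher, and the members' median was 0.11. The beta ring medians were −0.034, −0.0457 and 0.0943 for AR1-651, AIL in empty vector cells and AR1-651 with AIL, and the immunoproteasome median in the last was 0.0186. The causes were not tested. The missing replicates and depth limit every value.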
